A study of Mus musculus with 53 samples.

Results

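Mndal, Ifi204 and Ifi203 are mouse genes of the PYHIN family, and they were selected on their log2 intensities, which differed between genetic backgrounds of T-cell tumours. Mndal and Ifi204 are 2 of the 12394 genes with a probe set of their own, Ifi203 has shared ones only, and 7 of 22690 probe sets read the 3 genes. Since the genes were chosen by these levels, the levels are given below as a description, with no test. Total RNA of 53 T-cell lymphoblastic tumours from mice of 15 lymphoma-prone backgrounds had been measured on 1 oligonucleotide array each. All 53 samples carry the strain label C57BL/6, and normal thymus was not analysed here.

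The groups are named by genotype. Crossed TLX1 RUNX tumours came from TLX1 transgenic mice heterozygous for a RUNX gene (6 arrays; the TLX1 status label reads negative), and TLX1 tumours from TLX1 transgenic mice (6 arrays; status positive). Cdkn2a knockout tumours (9 arrays) came from mice that had also undergone retroviral insertional mutagenesis, so the knockout and the insertions cannot be told apart. Their titles carry differing names: myc on 3 arrays, mycras mix on 2, myb on 2, ras on 1 and pim1_ccnd3 on 1. Transgenic mice gave 3 ThPOK, 3 Tal1 with LMO2, 3 LMO1, 3 NUP98-HOXD13, 3 LMO1 with Olig, 3 beta-catenin, 2 Tal1 and 2 Pokemon arrays. The Olig gene is Olig2 in the sample titles and Olig1 in the genotype label. Mice labelled Ikaros plastic gave 3 arrays, p53 knockout mice 3, E2A knockout mice 2, and mice labelled as both rag and E2A knockout 2 (here Rag with E2A, replicates 3 and 4 in the titles). The labels do not give ages, the promoters of the transgenes, or whether each tumour of a background had its own donor mouse, so the spread between them may be technical.

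PYHIN proteins usually carry a pyrin domain, through which they bind other proteins, and 1 or more HIN domains, which bind DNA. Aim2 assembles an inflammasome on DNA in the cytosol, and Ifi204 has been linked to the sensing of foreign DNA in myeloid cells. Most of the mouse genes lie in 1 tandem cluster, respond to interferon and are so alike that probes often read several of them. Their number and expression are known to differ between inbred mouse strains, and Ifi202b is known to be low in C57BL/6 mice.

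The cluster spans 682 kb on chromosome 1, chr1:173349547-174031755 of GRCm38.p6, and holds 14 annotated PYHIN genes. Ifi204 lies at chr1:173747293-173767069, Mndal at chr1:173857215-173880382 and Ifi203 at chr1:173920400-173942866, with Ifi211 between the last 2 and Ifi202b beyond Ifi203. RefSeq promoter windows of the same build, covering 250 bases upstream of a start, were found for 12 of the 14 genes (14 windows). The core of the interferon-stimulated response element, GAAANNGAAA on either strand, occurred in 10 of these windows, from 9 genes, against 2.98% of 32851 windows of all genes. The gamma-activated sequence TTCNNNGAA occurred in 7.02% of all windows and in that of Ifi202b. The 30 bases around the match on the strand of each gene are shown to compare the sites, of which those of Mndal and Ifi203 have the same letters throughout, as do those of Ifi213 and Ifi208; the match is in capitals.

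Ifi206: tgtctctgagGAAATCGAAAgctatgaacc
Ifi214: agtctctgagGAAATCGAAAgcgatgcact
Ifi213: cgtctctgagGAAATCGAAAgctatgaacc
Ifi208: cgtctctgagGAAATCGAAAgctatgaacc
Ifi207: cctagccaggGAAATCGAAAattaagaaca
Mndal: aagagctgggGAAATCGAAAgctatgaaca
Ifi211: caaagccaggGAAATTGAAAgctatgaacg
Ifi203: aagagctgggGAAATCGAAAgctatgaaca
Ifi205: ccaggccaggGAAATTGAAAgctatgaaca

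The Mndal site lies at chr1:173880204-173880233 and the Ifi203 site at chr1:173942508-173942537, both on the minus strand, with the match beginning 36 and 35 bases upstream of the start. The annotated span of the gene covers 195 of the 250 bases of that Mndal window and all 250 of that Ifi203 window, and the other Ifi203 window held no match. Over the aligned columns of the windows Mndal and Ifi203 were identical at 233 of 249 (93.6%). Ifi211 and Ifi205 were identical at 141 of 153 (92.2%), where fewer columns of the 250-base windows were aligned. Mndal and Ifi202b were identical at 56.3%. The Ifi202b window held no GAAANNGAAA. A match of letters is a description of the window, and binding was not measured.

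The probe sets set what can be said of each gene. By annotation Mndal has 2 of its own, 1426906_at and 1452231_x_at, and Ifi204 has 1, 1419603_at. Whether their probes also read transcripts of other PYHIN genes was not tested. A further probe set, 1452348_s_at, is annotated to Mndal, Ifi204, Ifi211 and Ifi205 together. Ifi203 has none of its own: 1448775_at and 1425008_a_at are shared with Ifi203-ps and LOC100862473, and 1451567_a_at also with LOC102641031. Values from these 3 are called Ifi203 and its copies below.

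Mndal had a low level on 21 of 53 arrays and a wide range of levels on the rest. By 1426906_at the 21 arrays lay between 5.99 and 6.66 (log2 intensity), and the next array above stood at 7.63, which was the widest gap in the ranked values. The highest array stood at 12.34. By 1452231_x_at the widest gap lay between 8.64 and 9.20, with 22 arrays below it: the same 21 and beta-catenin replicate 2, at 8.22. By 1426906_at the standard deviation over the 53 arrays was 2.28, at percentile 99.98 of all probe sets. By 1426906_at Mndal was on the low arrays among the dimmest probe sets of the whole array, with a mean array percentile of 0.07 in Cdkn2a knockout tumours. By 1452231_x_at it was less dim, with mean percentiles of 7.51 in Cdkn2a knockout and 19.2 in NUP98-HOXD13 tumours. The lowest TLX1 array stood at percentile 40.8 by that probe set. The files give no detection call, so a low value is not shown to be 0.

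The low arrays included every array of 5 backgrounds. The 9 Cdkn2a knockout arrays had a lowest, median and highest Mndal level of 5.99, 6.42 and 6.58. NUP98-HOXD13 tumours read 6.66, 6.58 and 6.61, and Tal1 with LMO2 tumours 6.56, 6.56 and 6.57. Tal1 tumours read 6.41 and 6.51, and Rag with E2A knockout tumours 6.57 and 6.46. The levels of Tal1 with LMO2, Rag with E2A, Tal1 and Cdkn2a knockout tumours overlapped their neighbours in the order of means.

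The arrays above the gap filled 8 backgrounds, at levels from high to below the array median. LMO1 tumours read 12.34, 11.85 and 11.54, at a mean array percentile of 94.4, and Pokemon tumours 11.70 and 12.11. Ikaros plastic tumours read 12.31, 10.87 and 11.98. All of these arrays exceeded every low array by more than 4 log2 units. LMO1 with Olig tumours followed at 11.25, 10.24 and 10.87, then ThPOK tumours at 11.68, 9.83 and 8.69 and p53 knockout tumours at 8.59, 10.50 and 10.12. Beta-catenin tumours were nearest to the gap, at 8.95, 7.63 and 8.59, with a mean array percentile of 31.5. Crossed TLX1 RUNX tumours lay between 10.01 and 11.00 with a median of 10.71.

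In 2 backgrounds the replicates lay on both sides of the gap. The E2A knockout tumours read 10.21 and 6.53, while both Rag with E2A tumours were low. The TLX1 tumours read 10.12, 12.30, 6.31, 11.42, 12.15 and 9.28, so that replicate 3 stood with the low arrays and the other 5 did not. By 1452231_x_at TLX1 replicate 3 read 8.64, the highest of the arrays below the gap of that probe set, and by the shared 1452348_s_at it read 9.27. Over the 15 background means the 2 Mndal probe sets had a Pearson r of 0.995, and Mndal by 1426906_at and the shared 1452348_s_at one of 0.95. The points share the same arrays.

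**Figure D1:**
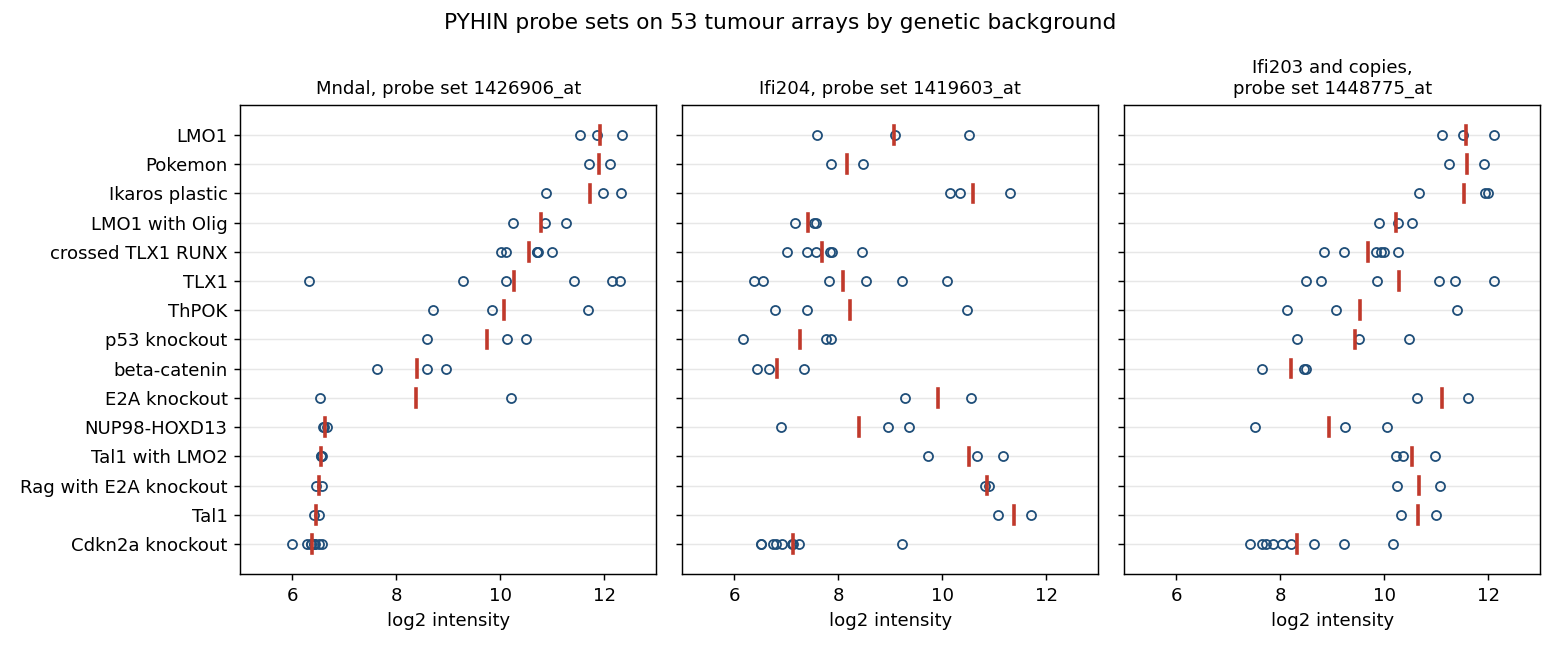
Log2 intensity (x axis) of Mndal, Ifi204 and a probe set of Ifi203 and its copies on 53 arrays, by genetic background (y axis, ordered by the mean of Mndal); open circles are arrays and red bars are background means. Mndal is at 6.66 or less on every array of 5 backgrounds, while Ifi204 is above 9 on every array of the Tal1, Rag with E2A and Tal1 with LMO2 backgrounds.

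Ifi204 followed another order. By 1419603_at it was highest in Tal1 tumours, at 11.70 and 11.06, and in Rag with E2A tumours, at 10.81 and 10.89, the same backgrounds in which Mndal was low. Tal1 with LMO2 tumours read 10.66, 11.17 and 9.73 and E2A knockout tumours 9.28 and 10.56. Ikaros plastic tumours, where Mndal was also high, read 11.29, 10.14 and 10.33. Except for the highest pair, Tal1 and Rag with E2A, every background overlapped the next in the order of Ifi204 means.

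Low and mixed levels of Ifi204 filled the other backgrounds. The 9 Cdkn2a knockout arrays had a lowest, median and highest level of 6.52, 6.91 and 9.23, where the highest was replicate 9 and the next was 7.24. Cdkn2a knockout tumours were thus low in Mndal on 9 of 9 arrays and at 7.24 or less in Ifi204 on 8 of 9. Beta-catenin tumours read 6.67, 6.44 and 7.33, p53 knockout tumours 6.16, 7.76 and 7.86, and LMO1 with Olig tumours 7.57, 7.17 and 7.52. The replicates of LMO1 (10.51, 9.08 and 7.59), ThPOK (10.47, 6.79 and 7.40) and NUP98-HOXD13 tumours (8.95, 9.35 and 6.90) were spread widely. Pokemon tumours read 7.85 and 8.48. Crossed TLX1 RUNX tumours lay between 7.01 and 8.46 with a median of 7.71, and TLX1 tumours between 6.38 and 10.09 with a median of 8.17.

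Over the background means, Ifi204 and Mndal (1426906_at) had a Pearson r of -0.29 (15 backgrounds). The difference between the highest and the lowest background mean was 4.57 for Ifi204 and 5.31 for Mndal by 1452231_x_at, where the median over 9157 genes was 1.12 and the upper quartile 1.56. The share of variance that lay between backgrounds was 71.5% for Ifi204 and 84.1% for Mndal by 1426906_at. It was 64.2% for the median gene with an upper quartile of 78.3%, which Mndal exceeded and Ifi204 did not. Both genes were chosen for levels that differ between backgrounds, so wide ranges were given by the choice.

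Ifi203 and its copies gave 3 patterns by 3 probe sets. By 1451567_a_at, the brightest, the level was 10.36 in the median array, and all 6 crossed TLX1 RUNX arrays (8.32 to 9.17) were below all others, the next being 9.71. TLX1 tumours had the highest mean, 11.34 ± 0.66 (SD, n = 6). Clustering on 27 control probe sets for bacterial transcripts placed the 6 crossed arrays in a set of their own. The 6 TLX1 arrays lay in another set, with 2 p53 knockout arrays. The highest and lowest background means by this probe set thus differ in array set too, and the part of the array set was not tested. The crossed arrays also had the lowest mean log2 array median, 8.61. By 1448775_at the highest means belonged to Pokemon (11.58), LMO1 (11.58) and Ikaros plastic (11.53) tumours, and the lowest to beta-catenin (8.20 ± 0.47, SD, n = 3) and Cdkn2a knockout tumours (8.33 ± 0.89, SD, n = 9). By 1425008_a_at the values covered 7.27 to 9.07. The difference between the highest and the lowest background mean was 2.67 by 1451567_a_at, 3.38 by 1448775_at and 1.49 by 1425008_a_at. Between these probe sets the background means had a Pearson r of 0.37 to 0.44 (15 backgrounds).

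By 1448775_at the backgrounds with high Ifi204 and low Mndal were in the upper part of the range. Rag with E2A tumours read 10.25 and 11.08, Tal1 tumours 10.99 and 10.32, and Tal1 with LMO2 tumours 10.36, 10.98 and 10.23. Their background means overlapped one another. The 9 Cdkn2a knockout arrays had a lowest, median and highest level of 7.42, 8.03 and 10.17, the highest being replicate 8.

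The list of other PYHIN genes held 13 names, of which Pyhin1 and Mnda are not among the 14 annotated genes of the cluster. Of these names, 3 had a probe set of their own: Ifi202b, Ifi209 and Aim2. Ifi202b, whose protein lacks the pyrin domain and can block Aim2, was high on some arrays low in Mndal and on some that were not. It read 12.04 and 11.19 in Rag with E2A tumours, 11.18, 10.78 and 11.15 in Tal1 with LMO2 tumours, 12.02 and 9.17 in Tal1 tumours and 11.50 and 10.55 in E2A knockout tumours. The 6 crossed TLX1 RUNX arrays lay between 7.37 and 8.12, while TLX1 replicates 3, 4 and 5 read 13.29, 12.33 and 12.54 and replicates 1, 2 and 6 read 7.70, 7.46 and 7.67. Single arrays stood out in Ikaros plastic (replicate 3, 12.04, against 7.51 and 7.17), Pokemon (replicate 2, 10.25, against 7.03) and Cdkn2a knockout tumours (replicate 7, 9.80, against 8.10 or less). In LMO1 with Olig tumours it read 7.12 on all 3 arrays.

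**Figure D2:**
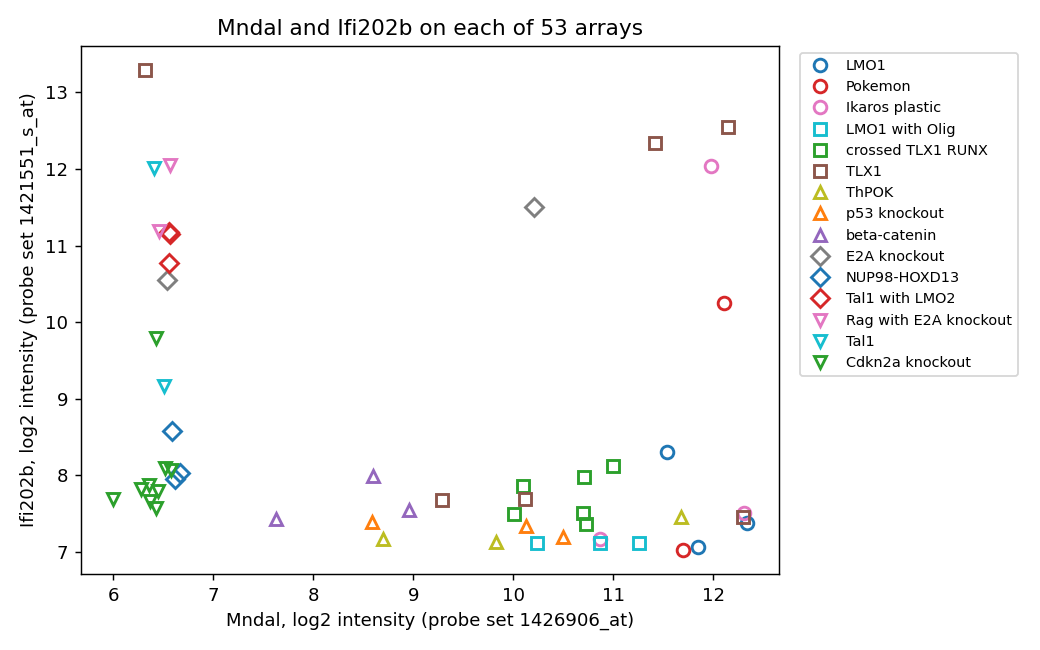
Log2 intensity of Ifi202b (y axis) against that of Mndal (x axis) on each of 53 arrays; symbol and colour give the background. Arrays low in Mndal hold both low Ifi202b (8 of 9 Cdkn2a knockout arrays at 8.10 or less) and high Ifi202b (Rag with E2A, Tal1 and Tal1 with LMO2), and TLX1 arrays lie in 3 corners.

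Ifi202b was on a list of genes that depend on the mouse strain, with H2-Ea, a class II histocompatibility gene that C57BL/6 mice do not express, and Nnt, a mitochondrial transhydrogenase gene damaged in the C57BL/6J line. The Ifi202b means had a Pearson r of 0.78 with Ifi204 and -0.50 with Mndal over 15 backgrounds. H2-Ea by its brightest probe set had background means from 8.44 in crossed TLX1 RUNX to 11.59 in p53 knockout tumours, and r was -0.02 with Mndal and -0.18 with Ifi204. Its other 2 probe sets had means between 7.45 and 8.11. Nnt ranged from 10.34 in Ikaros plastic to 11.60 in Rag with E2A tumours, with r of -0.27 and 0.07. The part of mouse strain in the levels of Mndal, Ifi204 and Ifi203 was not tested, since the labels give 1 strain for all samples.

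Ifi209, another gene of the cluster, gave differing patterns by its 2 probe sets, whose background means had an r of -0.14. By 1435330_at it was highest in LMO1 tumours, at 11.31, 10.18 and 9.29, and its background means had an r of 0.80 with Mndal. By 1435331_at the highest mean belonged to E2A knockout tumours, at 9.21 and 10.56, and r with Mndal was -0.45. Aim2 (1426619_at) lay between 7.50 and 9.29, and its standard deviation of 0.38 was at percentile 55.95 of all probe sets. The probe set shared by Ifi211 and Ifi205, 1452349_x_at, had an r of 0.98 with Mndal.

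Genes flanking the cluster did not share the range of Mndal and Ifi204, nor did Ifi209 (2.34) and Aim2 (1.16) within it. Of the 16 nearest genes with a probe set, 8 on each side, the difference between the highest and lowest background mean lay between 0.33 (Mptx1) and 2.95 (Opn3), and Fcer1a had 2.21. Their r with the Mndal means lay between -0.42 (Exo1) and 0.26 (Slamf8). Cadm3, whose span overlaps that of Aim2, had a difference of 0.97. Many of these genes are dim here, and 9 of the 16 did not pass the filter on low values.

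**Figure D3:**
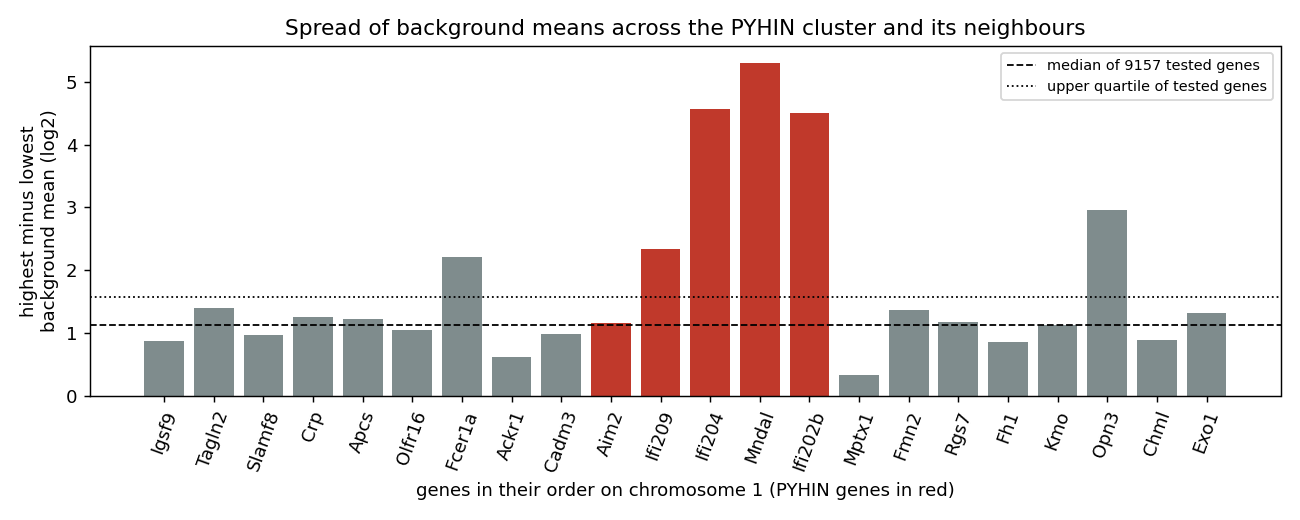
Difference between the highest and the lowest of 15 background means (y axis, log2) for genes in their order along chromosome 1 (x axis); PYHIN genes are red, flanking genes grey, and the lines give the median (1.12) and upper quartile (1.56) of 9157 genes. Ifi204 (4.57), Mndal (5.31) and Ifi202b (4.50) stand above all flanking genes, of which Opn3 is highest at 2.95. The PYHIN genes Ifi209 (2.34) and Aim2 (1.16) do not. Mndal and Ifi204 were chosen for levels that differ between backgrounds, so their wide ranges were given by the choice.

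The genes whose background means were most like those of each member were named by Pearson r over 15 backgrounds, with no test. For Mndal (1452231_x_at) these were Gnl2 (0.94), Ndufv3 (0.91), Ndufs5 (0.87), Spg21, Oma1, Mccc1, Slc35a5 and Rabgap1l (0.85), of which Rabgap1l lies on chromosome 1. For Ifi204 they were Romo1 (0.90), Dgcr6, Phc2, Hdac6, Dlg3, Galnt2, Tspan31 and Tmem147 (0.84), none on chromosome 1. For Ifi203 and its copies by 1451567_a_at they were Ace (0.90), Ascc1, Lpcat1, Rpp21, Hivep3, Sntb2, Dock9 and Homer2 (0.86). The highest and lowest background means of 19 of these 24 genes differed by more than in the median gene (1.12). Gnl2 covered 10.14 to 10.92 where Mndal covered 6.98 to 12.29, and Ace covered 8.58 to 11.24. By 1448775_at other genes were most like Ifi203 and its copies. They were Rilpl2 (0.92), Slc12a7 (0.91), Spats2, Mpzl2, Cpne3, Nrp1, Cyb561 and Mrpl24 (0.84), none of which is named for 1451567_a_at. The part of the array set in the likeness by 1451567_a_at was not tested.

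Markers and controls of the arrays set the frame for these levels. The mean of 10 T-cell markers lay between 9.15 and 12.32 on every array, with the lowest background mean in p53 knockout tumours (10.86), where replicate 2 read 9.15 and the others 11.89 and 11.53. Myeloid markers, in whose cells PYHIN genes are strongly expressed, were at their lowest means in E2A knockout (8.76), Tal1 with LMO2 (8.78) and Rag with E2A tumours (8.93), where Ifi204 was high. They were at 9.90 in Ikaros plastic and 9.33 in Tal1 tumours, where Ifi204 was high too, and at 9.32 in LMO1 with Olig and 9.66 in Cdkn2a knockout tumours, where it was low. Their highest mean was 10.05, in ThPOK tumours. In bulk tumours, fewer cells of a type and less RNA per cell cannot be told apart. Clustering on the 45 bacterial and phage control probe sets placed all 9 arrays of the E2A, Rag with E2A, Tal1 and Tal1 with LMO2 backgrounds in a set of their own. Mndal was low on 8 of these 9 arrays and high on E2A knockout replicate 1, and on 12 of the 32 arrays of the largest set, which holds the Cdkn2a knockout, LMO1 and crossed TLX1 RUNX arrays together. On all 9 arrays of that set Ifi204 was at 9.28 or more and Ifi202b at 9.17 or more, levels reached on 7 and 6 of the other 44 arrays. For these 4 backgrounds, array set and background cannot be told apart by this clustering. By the 27 controls for bacterial transcripts, all but Tal1 with LMO2 replicate 2 lie in the largest set (38 arrays), with other backgrounds.

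Interferon-stimulated genes, other than the PYHIN genes, were then compared between backgrounds, since they did not enter the choice of members. The list holds 44 genes, of which 37 had a probe set of their own and 34 passed the filter on low values. Each background was set against the mean of the other 14 in limma, at an adjusted p under 0.05 over 9157 genes. Over all 15 comparisons the list had 55 higher and 41 lower calls, where the background was 11.9% higher and 10.5% lower calls over all pairs of gene and background. These comparisons share their samples. Against the mean of the others, crossed TLX1 RUNX tumours had 11 higher and 9 lower calls and TLX1 tumours 8 and 5. The counts were 8 and 3 in p53 knockout, 5 and 3 in beta-catenin and 5 and 0 in ThPOK tumours. LMO1 tumours, with the highest Mndal mean, had 0 higher and 2 lower, and LMO1 with Olig tumours 0 and 1. Whether the calls follow the levels of Mndal or Ifi204 across backgrounds was not tested.

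In Cdkn2a knockout tumours 16 of the 34 genes fell and 7 rose, where 18.3% of all genes fell and 30% rose. The median difference of the list was -0.29, against 0.05 over all genes. The GTPase genes Ifi47 (-1.61 ± 0.22, SE, limma adjusted p = 1.02e-07) and Igtp (-1.15 ± 0.21, adjusted p = 1.26e-05), the restriction factor gene Trim30a (-1.06 ± 0.26) and the transcription factor gene Irf1 (-0.95 ± 0.13) fell most. Oasl1, of the oligoadenylate synthetase family (0.67 ± 0.07), Dhx58, a regulator of RNA sensing (0.55 ± 0.07), the signalling inhibitor gene Socs1 (0.53 ± 0.15) and Oas3 (0.51 ± 0.11) rose most. The other 2 probe sets of Dhx58 gave 0.03 and -0.10. Of 18 myeloid markers 7 rose and 1 fell in the same tumours, among them Lyz2 (0.70 ± 0.17), and of 10 T-cell markers 5 fell, among them Bcl11b (-0.99 ± 0.23). The part of these cell markers in the list was not tested. Of 7 interferon receptor and signalling genes tested, none passed in either direction (0 at an unadjusted p under 0.05 as well, in limma). Of 9 DNA sensing and inflammasome genes 3 rose and 3 fell, among them Il1b (0.52 ± 0.07) and Irf3 (-0.25 ± 0.07).

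In Ikaros plastic tumours 11 of the 34 genes rose and 2 fell, where 20.8% of all genes rose and 11.4% fell. Ifi27l2a (1.76 ± 0.53), the GTPase gene Iigp1 (1.66 ± 0.37), Oasl2 (1.09 ± 0.27) and Eif2ak2, the kinase PKR (0.89 ± 0.15; 0.12 by its other probe set), rose most, and Ifit2 (-0.66 ± 0.22) and the nucleic acid sensor gene Zbp1 (-0.54 ± 0.19) fell. Without Ikaros plastic replicate 2 the counts were 3 risen and 0 fallen, where 9.45% of all genes rose and 2.18% fell. That array read 11.02 in the mean of T-cell markers, against 12.12 and 12.32 on the other two, and 11.09 in that of stromal and endothelial markers, against 9.81 and 9.89. Without replicate 3 the count of fallen genes was 1. Of 18 myeloid markers 4 rose, among them C1qb (1.37 ± 0.30), and of 10 stromal and endothelial markers 4 rose. Their part in the list was not tested.

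In 6 backgrounds of 2 or 3 arrays the list had no calls. Limma called 0 of 34 genes in Rag with E2A, Tal1 and Tal1 with LMO2 tumours, which were high in Ifi204 and low in Mndal, and 0 in E2A knockout, NUP98-HOXD13 and Pokemon tumours, which were not all of that kind. The number at an unadjusted p under 0.05 was 4 lower in Rag with E2A, 2 higher in Tal1, 1 higher and 4 lower in Tal1 with LMO2, 1 higher in E2A knockout, 1 higher and 2 lower in NUP98-HOXD13 and 2 lower in Pokemon tumours. Few genes of any kind were called there: 0.71% higher and 1.2% lower in Rag with E2A, 2.8% and 0.83% in Tal1, 1.77% and 2.73% in Tal1 with LMO2, 1.61% and 1.18% in E2A knockout, 0.732% and 1.39% in NUP98-HOXD13, and 0.797% and 1.41% in Pokemon tumours.

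**Figure D4:**
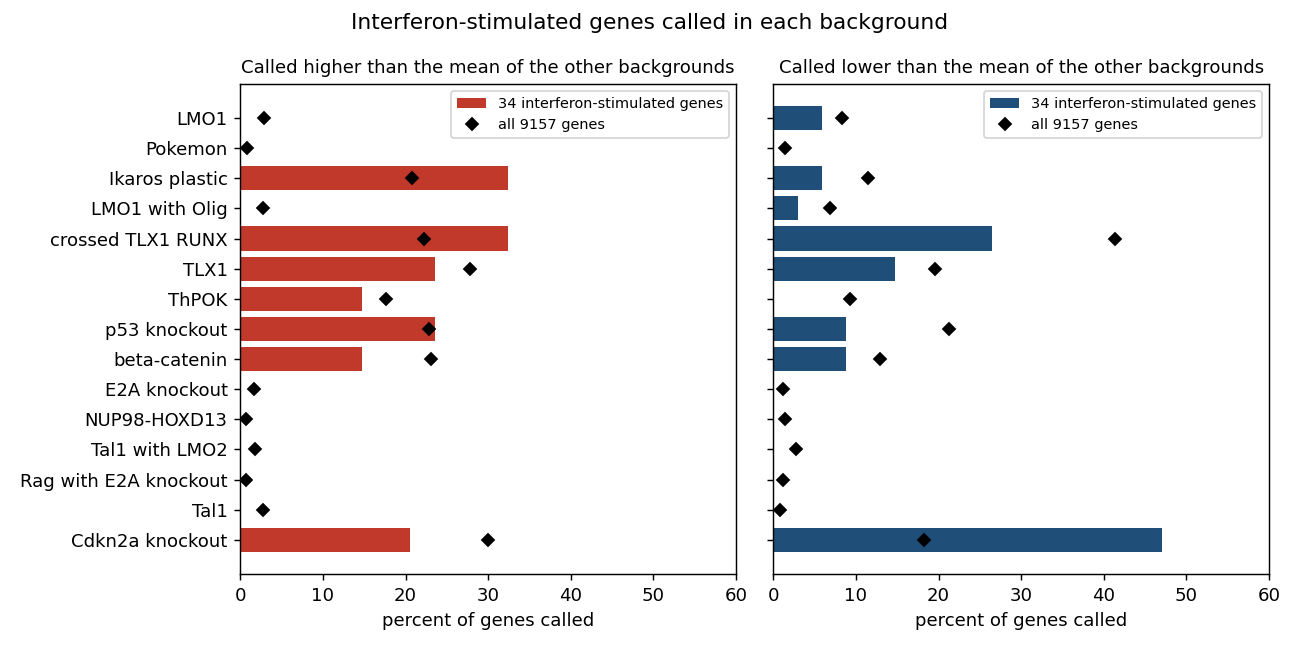
Percent of 34 interferon-stimulated genes (bars) and of all 9157 genes (diamonds) called higher (left) or lower (right) in each background than the mean of the other 14, at a limma adjusted p under 0.05. In Cdkn2a knockout tumours 16 of 34 were lower against 18.3% of all genes, and no bar is seen in the E2A, Rag with E2A, Tal1, Tal1 with LMO2, NUP98-HOXD13 and Pokemon rows.

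Crossed TLX1 RUNX tumours were set against TLX1 tumours, which differ by genotype in the RUNX allele and by label also in TLX1 status, so the allele and the status cannot be told apart. The list of 34 had 5 genes higher and 6 lower, where 17.9% of all genes were higher and 36.3% lower. Samhd1, a nucleotide-degrading restriction factor, was lowest (-4.46 ± 0.25, SE, limma adjusted p = 2.01e-08), but its 4 probe sets split, at -4.46, -4.31, -0.45 and 0.72. Oas3 (-2.01 ± 0.21), Ifit3 (-1.11 ± 0.30) and Oas1a (-1.10 ± 0.32) were also lower, and Socs1 (0.81 ± 0.23), Irgm1 (0.58 ± 0.11), Gbp2 (0.52 ± 0.21) and Irf9 (0.32 ± 0.12) were higher. With each array centred on its median, 16 of the 34 were higher and 4 lower, and over all genes 3860 were higher and 2050 lower in place of 1637 and 3322. Quantile normalization gave 8 higher and 5 lower in the list and 2281 and 2474 over all genes. The median over all genes was -0.12 in this comparison as deposited. The count of 5 higher genes was 3 without crossed replicate 1 or 4 or TLX1 replicate 1 or 2, and 8 without TLX1 replicate 5. In the same comparison 6 of 10 T-cell, 3 of 6 B-cell and 3 of 4 erythroid markers were lower and none of these higher. The 3' to 5' beta-actin log2 ratio averaged 0.77 ± 0.11 in crossed and 1.39 ± 0.62 in TLX1 tumours (SD, n = 6 each). The part of these in the list was not tested. By 27 control probe sets for bacterial transcripts the crossed arrays form an array set of their own. By that clustering, array set and cross cannot be told apart. By the 45 bacterial and phage control probe sets, the 6 crossed arrays share a set with 4 of the 6 TLX1 arrays.

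The spread inside a background did not enter the choice of members and was used for a test. In each background of 6 or more arrays, the level of each member was set against the mean log2 intensity of the 37 interferon-stimulated genes, in 9 relations with exact two-sided permutation tests and adjustment over the 9. The smallest p possible was 5.51e-06 with 9 arrays and 0.00278 with 6.

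Ifi203 and its copies went with the list in Cdkn2a knockout tumours. By 1451567_a_at Pearson r was 0.84 (exact permutation p = 0.00331, adjusted 0.0298, n = 9) and Spearman rho 0.95 (exact permutation p = 0.000353, adjusted 0.00317). Replicates 7, 8 and 9 were highest on both axes, with list means of 9.26, 9.69 and 9.25 and levels of 10.63, 10.45 and 10.42, while the other 6 had list means of 9.07 or less and levels of 10.04 or less. The titles name myc mix for replicate 7, pim1_ccnd3 for replicate 8 and myb for replicate 9, and myb also for replicate 6, the lowest on both axes. The permutation takes all 9 as exchangeable, and the part of these insertion names was not tested. Without the 2 arrays farthest from the median of the list mean, r was 0.95 (exact permutation p = 0.00119, adjusted 0.0107, n = 7). Spearman rho was then 0.93 and did not pass (exact permutation p = 0.00675, adjusted 0.0607). By the other probe sets r was 0.91 (1448775_at) and 0.91 (1425008_a_at). With arrays centred on their median r was 0.78 and did not pass (exact permutation p = 0.0132, adjusted 0.119). Spearman rho was 0.92 in that setting (exact permutation p = 0.00131, adjusted 0.0118).

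None of 7 other measures passed when set against this level in the same 9 arrays. Its r was 0.81 with the mean of 10 T-cell markers (exact permutation p = 0.00803, adjusted 0.0562 over 7 measures) and 0.77 with that of 9 B-cell markers (p = 0.0172 by exact permutation, adjusted 0.0602). It was -0.55 with 18 myeloid markers, 0.55 with 4 erythroid markers, 0.60 with the log2 array median and -0.53 with the 3' to 5' beta-actin ratio. Each of these had an adjusted p of 0.154 by exact permutation. With 10 stromal and endothelial markers r was 0.30 (exact permutation p = 0.425, adjusted 0.425). The list means of T-cell markers on these arrays lay between 10.90 and 11.66, those of B-cell markers between 8.16 and 9.11 and those of myeloid markers between 9.43 and 9.87. Their part in the relation was not tested.

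**Figure D5:**
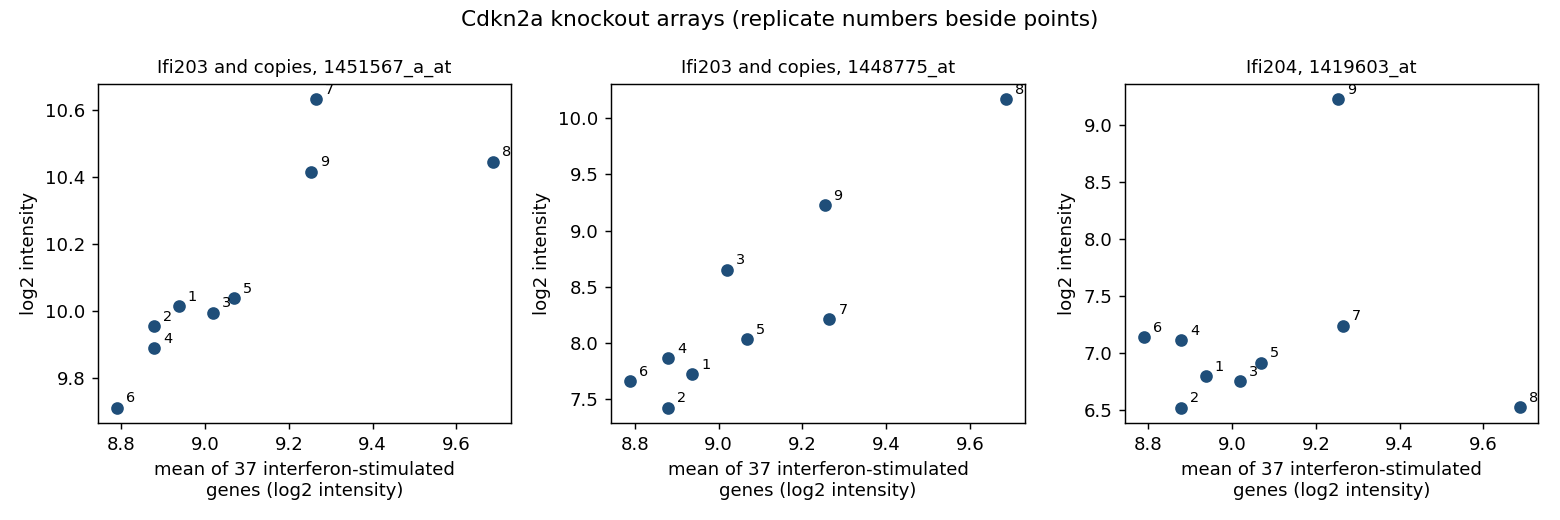
Log2 intensity of Ifi203 and its copies by 2 probe sets and of Ifi204 (y axes) against the mean log2 intensity of 37 interferon-stimulated genes (x axis) on the 9 Cdkn2a knockout arrays, with replicate numbers. The left and middle panels have r of 0.84 and 0.91, and the right panel 0.12, with replicate 9 alone at 9.23 in Ifi204.

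Mndal and Ifi204 gave no such relation that held. In Cdkn2a knockout tumours, where Mndal was low on every array, its r by 1452231_x_at was 0.70 (exact permutation p = 0.0383, adjusted 0.173, n = 9), with a Spearman rho of 0.85 (adjusted 0.0273 by exact permutation), but by 1426906_at r was -0.61. For Ifi204 r was 0.12 (exact permutation p = 0.768, n = 9). In crossed TLX1 RUNX tumours r was 0.68 for Mndal, 0.61 for Ifi204 and 0.69 for Ifi203 and its copies, with adjusted p of 0.322 or more by exact permutation (n = 6 each). In TLX1 tumours r was 0.31 for Mndal (exact permutation p = 0.551, adjusted 0.620, n = 6), 0.34 for Ifi204 and 0.54 for Ifi203 and its copies. None of these passed. In Mndal, TLX1 replicate 3 stands apart from the other 5.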

How the data were processed

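The deposited values are linear, normalized intensities of 22690 probe sets on 53 arrays. No source used here states how the authors normalized them. Per the labels' protocols, total RNA had been extracted with Trizol and labelled as biotin cRNA. Array medians ranged from 377 to 590, and the precision is limited by how many arrays a background has.

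Intensities were converted to log2. Probe sets were named by the array's gene table, with symbols updated by Entrez identifier against GRCm38.p6: 20393 carried 1 gene and 691 several. The 7 probe sets of the members are each described. Elsewhere the probe set of highest mean stood for a gene (12394 genes), and 9157 genes were tested, those brighter than the array's own median on 3 or more arrays. Mndal passed by 1452231_x_at and Ifi204 by 1419603_at. Ifi203, with no probe set of its own, is outside the fit. Two-sided tests used limma 3.58.1 (R 4.3.3) with p-values adjusted by Benjamini-Hochberg and a threshold of 0.05, and the fit was tested on simulated data. Relations used exact permutations (SciPy 1.17.1). Members, lists and tests were chosen with earlier results of these data known.

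Named genes followed a rule: all probe sets of the members, all measured genes of the PYHIN and strain lists, up to 4 called genes of largest difference from each other list, the 8 genes most like each member and the 8 nearest genes on each side of the cluster. Alternatives were other filters, probe sets and normalizations, robust eBayes, array set or replicate number as a block, and leaving out each array. Same-numbered crossed TLX1 RUNX and TLX1 arrays did not deviate together (correlations -0.186 to 0.148 over 6 numbers), so the numbers were not taken as pairs.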

Additional observations from a re-analysis of the deposited data

Results flagged for a closer look

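In groups of 6 or 9 arrays, 33 were examined for a sample far from the rest of its group, and 6 were found. A chance share of about 1 in 20 takes the groups as independent. Here the same arrays recur over related probe sets, so the 6 cannot be read against that share. In Cdkn2a knockout tumours replicate 9 stood apart in Ifi204, at 9.23 where the next array was 7.24. Replicate 7 stood apart in Ifi202b, at 9.80 where the next was 8.10, and in the probe set shared by Mndal, Ifi211, Ifi205 and Ifi204, at 8.26 where the next was 7.50. Replicate 8 stood apart in Aim2, at 9.001 where the next was 8.44, and in Ifi209 by 1435330_at, at 8.88 where the next was 8.25. In TLX1 tumours replicate 3, which was the array low in Mndal and highest in Ifi202b, stood apart in Aim2, at 8.63 where the next was 8.45. The causes were not tested.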

How the results depend on the processing

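Of 99 recomputed values, 88 kept their direction and side of the threshold or stayed within the spread. The count of interferon-stimulated genes called over the 15 backgrounds (55 higher, 41 lower) became 32 and 25 with a filter that left 21 of the list, and 35 and 29 with array set as a block and crossed TLX1 RUNX left out. Between crossed TLX1 RUNX and TLX1 tumours the count of 5 higher became 3 with that filter, 8 with quantile normalization and 16 with arrays centred. The relation of Ifi203 in Cdkn2a knockout tumours had a Pearson r of 0.78 with arrays centred (adjusted p = 0.119 by exact permutation). Spearman rho was 0.92 there (adjusted p = 0.0118 by exact permutation). The difference between the highest and lowest background mean was 4.19 for Mndal by 1452348_s_at. For Ifi203 and its copies it was 3.38 by 1448775_at and 1.49 by 1425008_a_at. Within the largest set by the 27 controls for bacterial transcripts (38 arrays) the difference by 1451567_a_at was 1.10. That set leaves out the 6 crossed and the 6 TLX1 arrays, 2 p53 knockout arrays and 1 Tal1 with LMO2 array. Without each array in turn, the counts over 15 backgrounds lay between 49 and 66 higher and 39 and 48 lower, and those of crossed against TLX1 between 3 and 8 higher and 6 and 8 lower. The differences lay between 5.28 and 5.50 for Mndal, 4.25 and 4.88 for Ifi204 and 2.50 and 2.83 for Ifi203 by 1451567_a_at. With the replicate number as a block the counts were 64 higher and 38 lower over the backgrounds and 5 and 6 for crossed against TLX1, where 1470 and 3169 of all genes were called in place of 1637 and 3322. In Cdkn2a knockout tumours the count of fallen genes was 10 of 21 with the stricter filter, where 20.8% of all genes fell, and in Ikaros plastic tumours that of risen genes was 4 of 21, where 16.6% rose. Except where named, the cause of a change was not tested. Probe sets shared by near-identical genes, and the lack of a detection call, limit what a low or high value says of any 1 PYHIN gene.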
